A study of Mus musculus with 6 samples.

Results

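The cytosolic ribosomal protein genes were compared between RNA on affinity-purified ribosomes (IP) and Input RNA of mouse thalamus. The genes were all rows of the count tables whose symbol begins with Rpl, Rps or Rplp and a digit, or is Rpsa. Kinases of the Rps6k family (10 names) and pseudogene names with -ps (6 names) were left out. This gave 87 of 32531 gene rows. Of the 87, 84 were among the 16496 genes that passed the filter on low counts. The products of 77 of the genes are ribosomal proteins proper, 46 of the large and 31 of the small subunit, and all 77 passed the filter. The other 10 rows were 8 paralogs, Rps19bp1, whose product binds the ribosomal protein Rps19 and is not a part of the ribosome, and Rpl37rt, which GENCODE annotates as a transcribed processed pseudogene. Rps4l, kept among the paralogs, carries the same annotation. Rps19bp1 and Rpl37rt were set apart after the row names had been seen.

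Each ribosome holds ribosomal RNA and a set of proteins. The small subunit reads the mRNA, and the large subunit joins the amino acids and passes the growing chain out through a tunnel. Many mammalian ribosomal protein mRNAs begin with a C followed by a stretch of pyrimidines, the 5′ terminal oligopyrimidine (TOP) motif, through which signals acting by mTOR set how much of these mRNAs is on ribosomes. Their genes are also known for the large number of processed pseudogenes copied from their mRNAs, so that many short reads from them match several places in the genome.

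The IP and Input groups held 3 libraries each, numbered 1 to 3, from thalamus of untreated adult control mice of the line Slc17a6-EGFP/Rpl10a (JX883). Both groups come from animals that carry the transgene. In this TRAP (translating ribosome affinity purification) line, EGFP is fused to Rpl10a, a protein of the large subunit, and Slc17a6, which encodes the glutamate transporter VGLUT2 of synaptic vesicles, gives the line its name. IP libraries were made from polysomes captured with anti-EGFP antibodies, so they report on tagged cells, and in IP against Input a change in the number of cells of a type and a change in RNA per cell cannot be told apart. Input is also labelled as ribosomal-bound RNA, and reading it as RNA of the whole tissue is an assumption. The labels do not say whether libraries of 1 group came from separate animals, so the p-values rest on the spread between these libraries alone, which between replicates 2 and 3 may be technical.

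Gene reads ran from 52068141 to 54421395 in IP and from 44081149 to 47340321 in Input. Levels are given in CPM, the reads of a gene relative to all gene reads of the library after TMM scaling. Alignments at more than 1 place, which were not counted to genes, made up 38.48% to 45.03% of records in IP and 23.61% to 27.23% in Input. All 10 oligodendrocyte markers were lower in IP than in Input, with a summed level of 186 to 330 CPM in IP and 4029 to 5770 CPM in Input, whereas 3 of 9 neuron markers and 3 of 9 thalamic glutamatergic neuron markers were higher and 0 lower (6 of 9 in each list with the replicate number as a block). Of 8 astrocyte, 8 microglia and 7 endothelial markers, 7, 7 and 4 were lower and 0 higher. Of 5 GABAergic neuron markers 3 were lower and 0 higher, and with the block 5 were lower. Their summed level was 102 to 257 CPM in IP and 780 to 1248 CPM in Input. The part of these cell types in the ribosomal protein values was not tested. In its Y-linked reads replicate 1 stood apart from replicates 2 and 3 in both groups. The Y-linked gene Ddx3y had 1, 896 and 560 reads in IP replicates 1, 2 and 3. It had 0, 953 and 515 reads in Input replicates 1, 2 and 3, so replicate 1 cannot hold the same animals as the others. Slc17a6 had 6489, 2193 and 2200 CPM in IP replicates 1, 2 and 3 and 3153, 875 and 477 CPM in Input replicates 1, 2 and 3, so replicate 1 held the most. IP was above Input in each replicate while the groups overlapped. Without the block the log2 fold change of Slc17a6, 1.27 ± 0.68 (SE), did not pass (edgeR quasi-likelihood adjusted p = 0.206). With the block it was 1.52 ± 0.19 and passed (edgeR quasi-likelihood adjusted p = 2.46e-04). The X-linked RNA Xist had 0.933, 0.470 and 1.64 CPM in IP replicates 1, 2 and 3. In Input replicates 1, 2 and 3 it had 21.5, 22.7 and 50.8 CPM, so Input replicates 2 and 3 held both Xist and Ddx3y. Lanes (3, 8 and 4) cannot be told apart from replicate numbers.

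The annotated starts show which of the genes begin with a pyrimidine run. RefSeq start windows (GRCm38.p6) were at hand for 66 of the 87 genes. Of these, 13 had at least 1 start at which a C opened an unbroken run of 5 or more pyrimidines on the transcribed strand, or 19.7%, against 813 of 27025 genes in the whole table, or 3.01%. A run is a description of the annotated start, and a start placed a few bases off would miss it. Near the start, though not always at it, 41 of 78 starts of these genes (52.56%) had 5 pyrimidines opened by a C. Of all starts 30.72% had such a run. The windows below, 15 bases before and 15 from the start, are shown for genes with such a run and for the genes on which the comparison of IP with Input turns. Capitals mark the unbroken pyrimidines from the start on, and a window without capitals starts at a purine.
Rpl35, chr2:39005117-39005146, minus strand: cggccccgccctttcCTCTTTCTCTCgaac
Rps6, chr4:86857353-86857382, minus strand: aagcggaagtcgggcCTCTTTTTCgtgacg
Rpl38, chr11:114668565-114668594, plus strand: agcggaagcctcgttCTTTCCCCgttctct
Rplp2, chr7:141447636-141447665, plus strand: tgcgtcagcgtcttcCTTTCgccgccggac
Rpl41, chr10:128549154-128549183, minus strand: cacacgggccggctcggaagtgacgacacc
Rpl9, chr5:65391417-65391446, minus strand: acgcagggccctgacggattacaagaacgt
Rpl7l1, chr17:46782642-46782671, minus strand: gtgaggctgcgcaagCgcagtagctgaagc
Rps19bp1, chr15:80264292-80264321, minus strand: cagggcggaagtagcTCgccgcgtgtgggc
The first 4 begin with a pyrimidine run and the last 4 do not.

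Few of the genes passed the test of IP against Input. Of the 84 tested, 2 were higher in IP, Rps19bp1 and Rpl7l1, 1 was lower, Rpl9, and 81 stayed short of the threshold (edgeR quasi-likelihood, Benjamini-Hochberg adjusted p under 0.05). That is 3.57% of the genes, against 25.2% of all tested genes, of which 9.60% were higher and 15.6% lower. Neither of the higher genes is a ribosomal protein proper, so among the 77 there were 0 higher and 1 lower. At an unadjusted p under 0.05, 10 of the 84 were higher and 1 was lower, against 16.1% and 22.0% of all tested genes (38.2% in either direction). By DESeq2 the counts were 3 higher, with Rpl41 added, and 1 lower, and by limma-voom 4 higher, with Rpl41 and Rplp2 added, and 0 lower. The tests above did not use the pairing of IP and Input libraries by replicate number, described below, which a block takes in. With the replicate number as a block, 10 were higher and 0 lower, against 15.9% and 19.2% of all tested genes (35.1% in either direction). Of those 10, 7 were ribosomal proteins proper (Rpl18, Rpl23, Rpl27a, Rpl34, Rpl39, Rpl41 and Rplp2), all of the large subunit, and 3 were Rps19bp1, Rpl7l1 and Rps27l. Whether the large and small subunits differed was not tested.

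Most of the log2 fold changes of IP over Input were small and above 0. The median over the 84 genes was 0.25, against -0.04 over all tested genes and 0.02 over the tested protein-coding genes. Of the 84, 63 were above and 21 below 0, against 7927 above and 8569 below among all 16496 tested genes. The large subunit had a median of 0.25 and the small subunit 0.22. In 20 of the 84 all IP libraries were above all Input libraries, and in 5 (Rpl5, Rpl9, Rpl23a, Rps4x and Rps12) all were below, against 19.9% and 25.0% of all tested genes.

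**Figure D1:**
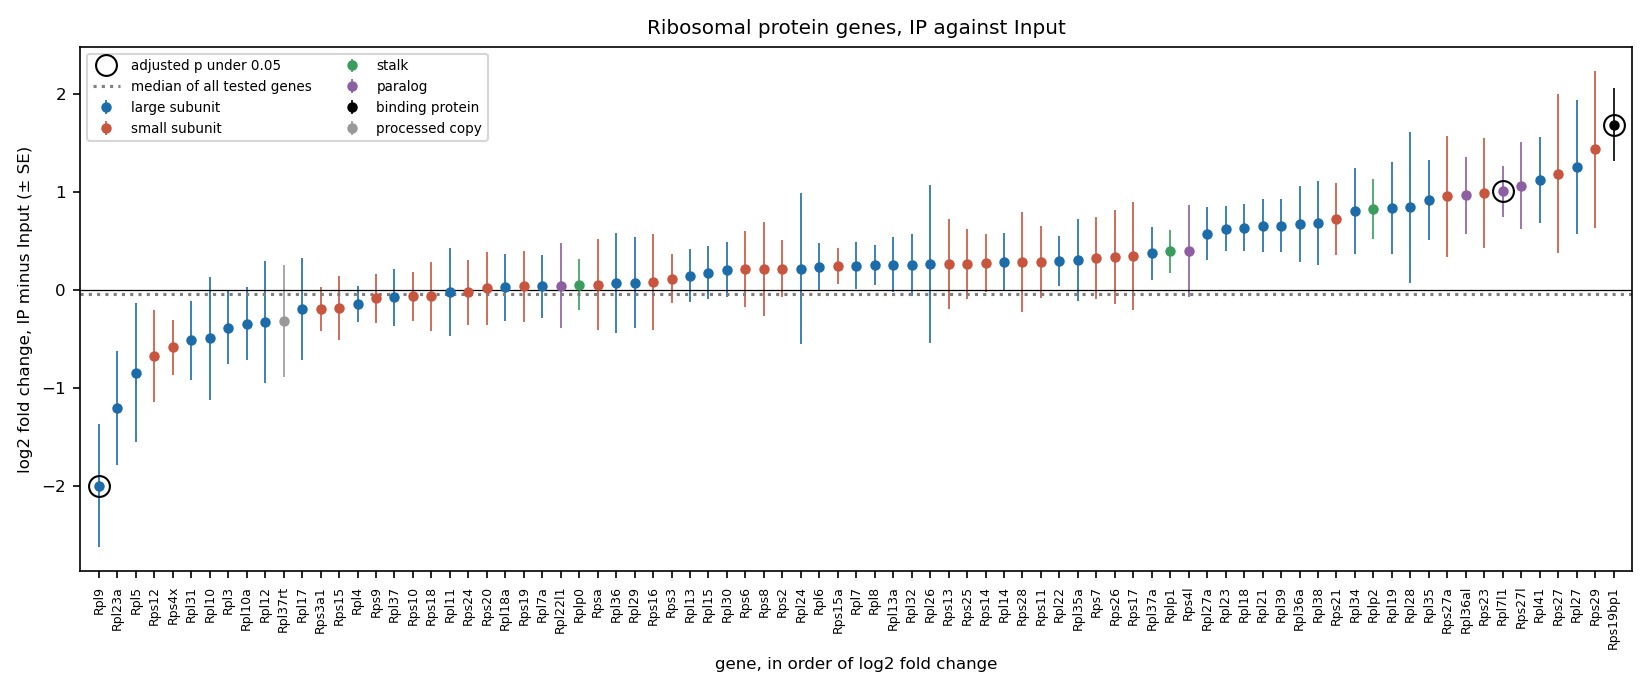
Log2 fold change of IP over Input with its SE (y axis) for the tested genes in order of their value (x axis), coloured by role, with 1 of the 84 not shown. The dotted line is the median of all tested genes, -0.04. The 3 circled genes are those that passed without the replicate block, Rpl9 at the left and Rpl7l1 and Rps19bp1 at the right.

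The levels of the genes varied between replicates. The summed level of the genes was 2410, 3206 and 3004 CPM in IP replicates 1, 2 and 3 and 1796, 2719 and 2872 CPM in Input replicates 1, 2 and 3. Replicate 1 was the lowest library of both groups, and the groups overlapped. As a share of gene reads the genes took 0.285 ± 0.0581% in IP and 0.252 ± 0.0673% in Input (SD, n = 3 each). IP had the higher share in each replicate, with 0.218, 0.327 and 0.308% in IP replicates 1, 2 and 3 and 0.174, 0.295 and 0.287% in Input replicates 1, 2 and 3, but with rows named only by a clone accession left out of the gene reads it was higher in replicates 1 and 2 and lower in replicate 3 (0.311% in IP against 0.321% in Input). The difference in share was not tested. In IP, replicate 1 had the lowest level of the 3 libraries for 66 of the 84 genes, against 39.0% of all tested genes, and in Input for 73 of 84, against 33.9% of all tested genes. The median log2 difference from the other 2 libraries of the group was -0.41 in IP replicate 1 and -0.71 in Input replicate 1, while the medians of all tested genes were -0.00 and 0.03. Within replicates 1, 2 and 3 the median log2 ratio of IP to Input was 0.46, 0.27 and 0.05, and IP was higher in 62, 63 and 45 of the 84 genes. Without Input replicate 1 the median log2 fold change was 0.03 and the 2 genes higher in IP were Rpl41 and Rps19bp1. Without both libraries of replicate 1 the median was 0.14, and Rpl7l1 and Rps19bp1 were called higher. What set replicate 1 apart was not tested.

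**Figure D2:**
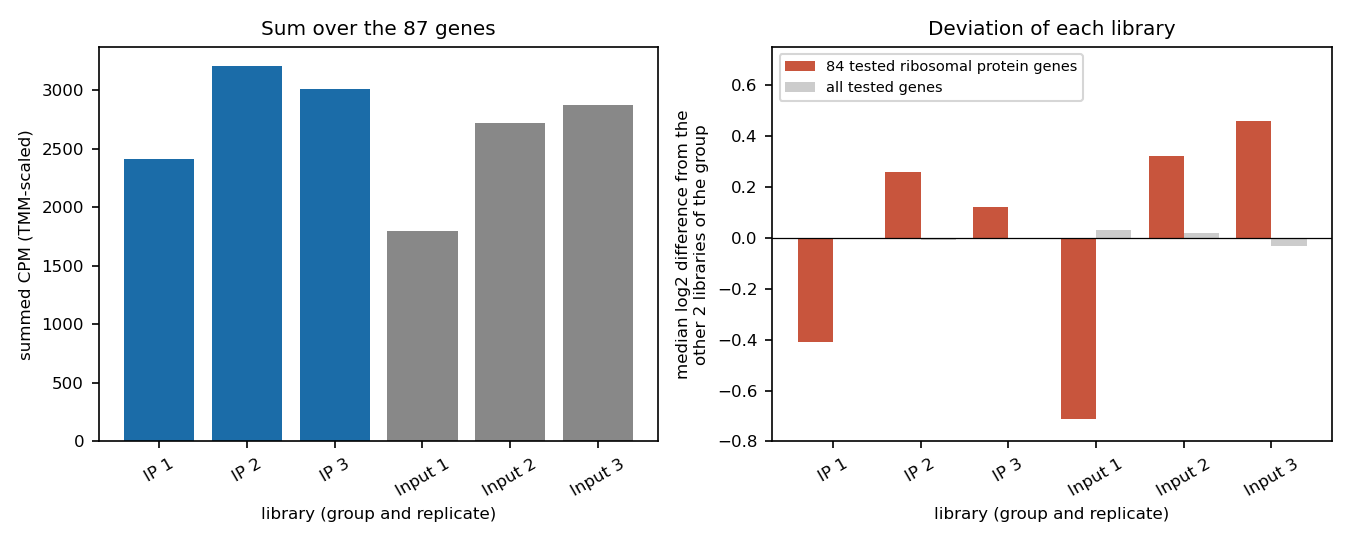
Left, summed level of the 87 genes in each library (CPM, TMM-scaled). Right, median log2 difference of each library from the other 2 of its group, for the 84 tested ribosomal protein genes and for all tested genes. Replicate 1 is lowest in both groups, at -0.41 in IP and -0.71 in Input, while the medians of all genes stay near 0.

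Rps19bp1, also known as AROS, a partner of the deacetylase SIRT1, had the highest log2 fold change of the 84. Its level was 25.2, 34.0 and 26.4 CPM in IP replicates 1, 2 and 3 and 9.22, 12.8 and 4.50 CPM in Input replicates 1, 2 and 3. Every IP library was above every Input library. The log2 fold change was 1.69 ± 0.37 (SE; edgeR quasi-likelihood adjusted p = 0.0127), and the gene passed in 7 of 9 fits that left out libraries (adjusted p 0.0120 to 0.0695). It did not pass without IP replicate 2, at 1.55 (adjusted p = 0.0514), or without both libraries of replicate 2, at 1.91 (adjusted p = 0.0695). It lies on chromosome 15 (80260615 to 80264315, minus strand, GRCm38), has 4 exons, and shares no 50-base stretch with another annotated transcript.

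Rpl7l1 encodes a paralog of the large subunit protein Rpl7. It had 27.5, 35.7 and 32.5 CPM in IP replicates 1, 2 and 3 and 12, 20.1 and 15.4 CPM in Input replicates 1, 2 and 3. All IP libraries lay above all Input libraries, and the log2 fold change was 1.01 ± 0.26 (edgeR quasi-likelihood adjusted p = 0.0211, and 0.00404 under the replicate block). The call held in 4 of 9 fits that left out libraries (adjusted p 0.0292 to 0.118). It was lost without IP replicate 2 (0.92, adjusted p = 0.0842), IP replicate 3 (adjusted p = 0.0657), Input replicate 1 (0.85, adjusted p = 0.0507), both libraries of replicate 2 (1.12, adjusted p = 0.118) or both of replicate 3 (0.99, adjusted p = 0.0807). The gene lies on chromosome 17 (46773907 to 46782672, minus strand, GRCm38), and 90.81% of its 50-base windows were found in no other annotated gene's transcript. Rpl7 itself, whose mean level was 24.3 ± 4.65 CPM in IP against 20.5 ± 2.66 CPM in Input (SD, n = 3 each), did not pass, at a log2 fold change of 0.25 ± 0.24 (edgeR quasi-likelihood adjusted p = 0.493).

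The other paralogs were a mixed set. Rps27l, a paralog of Rps27, had 8.13, 11.5 and 8.99 CPM in IP, against 2.28, 4.61 and 6.77 CPM in Input (replicates 1, 2 and 3). The groups did not overlap, and at 1.07 ± 0.44 the log2 fold change did not pass (edgeR quasi-likelihood adjusted p = 0.110). Under the replicate block it was 1.19 ± 0.40 and passed (edgeR quasi-likelihood adjusted p = 0.0393). Rpl36al, the paralog of the X-linked Rpl36a, had a log2 fold change of 0.97 ± 0.39 (edgeR quasi-likelihood adjusted p = 0.107), Rps4l 0.40 ± 0.47 (0.11 without Input replicate 1) and Rpl22l1, the paralog of Rpl22, 0.05 ± 0.43, and none of these passed. The 3 paralogs known for expression outside the brain had few reads and were not tested; the floor of 3 reads is 0.0551 to 0.0681 CPM in these libraries. Rpl10l, known from mouse testis, had 0 reads in all 6 libraries. Rpl39l, also a testis gene, had 7, 0 and 0 reads in IP and 4, 0 and 0 reads in Input. Rpl3l, which replaces Rpl3 in heart and skeletal muscle, had 4, 3 and 5 reads in IP and 7, 11 and 33 reads in Input, so that every IP library was below every Input library and Input replicate 3, at 0.749 CPM, was the highest.

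In the edgeR test without the replicate block, the only call in the large subunit was Rpl9, a gene on chromosome 5 (65388364 to 65391444, minus strand, GRCm38). Rpl9 had 0.527, 0.545 and 0.552 CPM in IP replicates 1, 2 and 3 and 1.37, 2.64 and 2.45 CPM in Input replicates 1, 2 and 3. IP was below Input throughout, with a log2 fold change of -1.99 ± 0.63 (edgeR quasi-likelihood adjusted p = 0.0496). The call was lost under the replicate block (adjusted p = 0.0907), in all 9 fits that left out libraries (log2 fold change -2.22 to -1.82, adjusted p 0.0711 to 0.311), and with RLE factors, library totals, limma-voom, no filter or no clone accessions (adjusted p 0.0502 to 0.0853). Only 6.68% of its 50-base windows were found in no other annotated gene's transcript, and 13 annotated pseudogenes shared a window with it. Its count may therefore cover only a small part of its mRNA.

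The lowest log2 fold changes after Rpl9 also belonged to ribosomal proteins, none of which passed. Rpl23a, at the exit of the tunnel, had 0.852, 0.922 and 1.14 CPM in IP, against 2.98, 1.84 and 1.88 CPM in Input, a log2 fold change of -1.20 ± 0.58 (edgeR quasi-likelihood adjusted p = 0.166). Rps4x, the X-linked small subunit protein, had 11.2, 21.7 and 19.3 CPM in IP, against 24.6, 27.4 and 25.8 CPM in Input, a log2 fold change of -0.58 ± 0.28 (edgeR quasi-likelihood adjusted p = 0.163). In both genes IP lay below Input in every library. Rpl5, which with Rpl11 carries the 5S rRNA into the large subunit, had a log2 fold change of -0.84 ± 0.71, and Rpl11 -0.02 ± 0.45. Rps12 had -0.67 ± 0.47, Rpl31 -0.51 ± 0.40, Rpl10, which completes the large subunit late in assembly, -0.49 ± 0.63, and Rpl3 -0.38 ± 0.37. Of these, Rpl5, Rpl23a and Rpl31 overlap an exon of another gene on the opposite strand, and whether the counts used strand is unknown.

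The tagged protein's own gene was among those that did not pass. Rpl10a had 4.12, 6.08 and 5.61 CPM in IP replicates 1, 2 and 3 and 5.02, 7.90 and 7.02 CPM in Input replicates 1, 2 and 3. The groups overlapped, although IP was the lower library in each of the 3 replicates. Of its 50-base windows 22.28% were unshared. Whether reads of the EGFP/Rpl10a transgene were counted to this row was not tested.

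**Figure D3:**
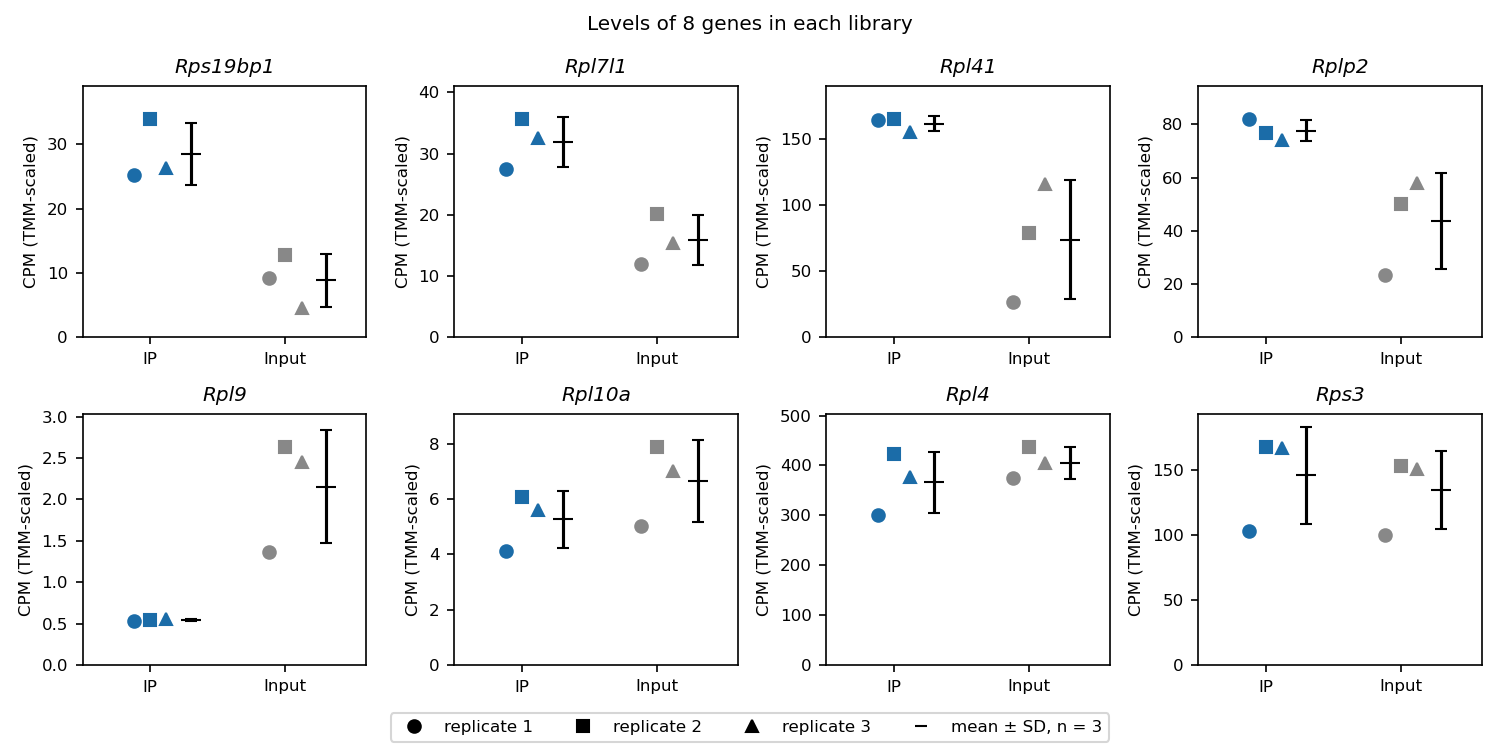
Level in each library (CPM, TMM-scaled, y axes from 0) of 8 genes in IP (left in each panel) and Input (right), with the mean and SD of the 3 libraries beside the points. The groups are apart for Rps19bp1, Rpl7l1, Rpl41, Rplp2 and Rpl9, and overlap for Rpl10a, Rpl4 and Rps3.

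Of the proteins of the stalk, which recruits translation factors to the large subunit, Rplp1 and Rplp2 had every IP library above every Input library, and neither passed in the edgeR test without the replicate block. Rplp2 had 82.1, 76.6 and 74.2 CPM in IP replicates 1, 2 and 3 and 23.5, 49.9 and 58.0 CPM in Input replicates 1, 2 and 3. The IP libraries lay close together and above all Input libraries, of which replicate 1 was far below the others. At 0.83 ± 0.31 the log2 fold change did not pass (edgeR quasi-likelihood adjusted p = 0.0846, and 0.0186 under the replicate block), and leaving out both replicate 1 libraries gave 0.49. It passed by limma-voom, at 0.93 (adjusted p = 0.0486), and in edgeR without Input replicate 3, at 1.09 (adjusted p = 0.0413). Rplp1 had 0.40 ± 0.22 (0.26 without both replicate 1 libraries) and Rplp0, which anchors both, 0.06 ± 0.26. Rpl12 at the base of the stalk had -0.32 ± 0.62.

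Rpl41, whose product is among the smallest known proteins, has a coding sequence of 75 bases here. Of the ribosomal protein genes it had the highest level per kilobase of transcript in IP, at 369 CPM per kb. In Input it had 168 CPM per kb, and Rpl4 and Rps15 were above it at 263 and 216 CPM per kb. These ranks rest on 1 annotated transcript per gene, and a long transcript lowers the level. Rps15a, for example, had a transcript of 5179 bases for a coding length of 390 bases. Rpl41 had 164, 165 and 155 CPM in IP replicates 1, 2 and 3 and 26.2, 78.5 and 116 CPM in Input replicates 1, 2 and 3. The IP libraries were nearly equal, and the Input libraries spread widely below them. At 1.13 ± 0.44 the log2 fold change did not pass (edgeR quasi-likelihood adjusted p = 0.0913), but it did under the replicate block, at 1.36 (adjusted p = 0.00997), by DESeq2, at 1.11 (adjusted p = 0.0396), and by limma-voom, at 1.38 (adjusted p = 0.0402). In edgeR it also passed without Input replicate 1, at 0.74 (adjusted p = 0.0446), without Input replicate 3, at 1.64 (adjusted p = 0.0276), and without both libraries of replicate 3, at 1.66 (adjusted p = 0.0459). Leaving out both replicate 1 libraries gave 0.72 (adjusted p = 0.0555). Its start window, above, holds no pyrimidine run.

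Other genes with a high level per kilobase did not pass the edgeR test. Rpl4, which lines the exit tunnel, had 301, 422 and 377 CPM in IP, against 374, 438 and 404 CPM in Input, so that the groups overlapped, and its log2 fold change was -0.14 ± 0.18. Rps9, Rps15, Rpl8 and Rpl32 had log2 fold changes of -0.08 ± 0.25, -0.18 ± 0.33, 0.26 ± 0.20 and 0.26 ± 0.32. Rps21 had 0.73 ± 0.37, and 0.29 without both replicate 1 libraries. Rpl39, a small protein of the tunnel wall, had 39.2, 43.7 and 37.2 CPM in IP, against 16.3, 26.7 and 33.1 CPM in Input, with every IP library above every Input library. At 0.66 ± 0.27 the log2 fold change did not pass (edgeR quasi-likelihood adjusted p = 0.113), and it was 0.44 without both replicate 1 libraries. Under the replicate block it was 0.71 ± 0.24 and passed (edgeR quasi-likelihood adjusted p = 0.0375). Without the block the 9 tunnel proteins had 0 genes called in either direction and a median of 0.27, and under it 1 was higher.

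Rpl18, Rpl23, Rpl27a and Rpl34, all of the large subunit, passed under the replicate block and not without it. Rpl18 had 21.7, 28.1 and 27.4 CPM in IP replicates 1, 2 and 3 and 14.9, 20.3 and 14.4 CPM in Input replicates 1, 2 and 3, a log2 fold change of 0.64 ± 0.24 (edgeR quasi-likelihood adjusted p = 0.0872, and 0.0454 under the block). Rpl23 had 44.6, 55.3 and 49.4 CPM in IP replicates 1, 2 and 3 and 24.1, 38.1 and 34.0 CPM in Input replicates 1, 2 and 3, a log2 fold change of 0.63 ± 0.23 (edgeR quasi-likelihood adjusted p = 0.0740, and 0.0189 under the block). In both genes the groups were apart. Without the block Rpl27a had 0.58 ± 0.27 and Rpl34 0.81 ± 0.44 (edgeR quasi-likelihood adjusted p = 0.154 and 0.212). Under it they had 0.64 ± 0.19 and 0.98 ± 0.28 (edgeR quasi-likelihood adjusted p = 0.0240 and 0.0202). Without Input replicate 1 Rpl27a had 0.34 and Rpl34 0.43, and without Input replicate 3 0.80 and 1.24. Rpl34 had 21.4, 34.1 and 30.8 CPM in IP, against 6.46, 18.1 and 24.8 CPM in Input, so the groups overlapped while IP was higher in each replicate. Rpl27, next to Rps29 and Rps19bp1 the highest of the 84, had 1.54, 2.11 and 1.25 CPM in IP, against 0.391, 0.880 and 0.772 CPM in Input. Its log2 fold change of 1.26 ± 0.68 had an adjusted p of 0.208 (edgeR quasi-likelihood), with the groups apart at a low level. Rpl22, which lies at the outer surface of the subunit, had 0.30 ± 0.26, and 0.02 without both replicate 1 libraries.

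In the small subunit 0 of 31 genes passed in either direction, also with the replicate block (edgeR quasi-likelihood test). At an unadjusted p under 0.05, and by DESeq2 and limma-voom, the count was also 0. Rps3, which lies at the mRNA entry and also acts in DNA repair, had 103, 168 and 167 CPM in IP, against 100, 153 and 151 CPM in Input. Both replicate 1 libraries were low and the groups overlapped, with a log2 fold change of 0.12 ± 0.25. Rps6, the substrate of the S6 kinases, had 0.22 ± 0.39, Rpsa 0.06 ± 0.46 and Rps26, at the mRNA exit, 0.34 ± 0.48. Rps27a, made as a fusion with ubiquitin, had 0.96 ± 0.62. The highest values were those of Rps29 (1.44 ± 0.80), Rps27 (1.19 ± 0.81) and Rps23, of the decoding centre (0.99 ± 0.56). Rps29 had 2.21, 2.48 and 2.56 CPM in IP, against 0.152, 1.35 and 1.16 CPM in Input, and Rps27 had 2.05, 2.20 and 2.57 CPM in IP, against 1.59, 1.23 and 0.159 CPM in Input. In each, 1 Input library was far below the other 2, replicate 1 for Rps29 and replicate 3 for Rps27, a gene with 1.35% of its windows unshared. Without Input replicate 1 the value of Rps29 was 0.95, and without Input replicate 3 that of Rps27 was 0.70. The 9 genes of the mRNA path and head had a median of 0.22. A list of 11 genes of both subunits held some of those mutated in human Diamond-Blackfan anaemia, a failure of red cell formation. These 11 had a median of 0.18 and 0 calls, with Rps19 at 0.04 ± 0.36. The list is not complete and does not hold Rps29, Rpl27 or Rps27.

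The share of each mRNA found in no other annotated gene varied widely among the 77 ribosomal proteins proper. The share of 50-base windows found in no annotated transcript of another gene, on either strand, had a median of 45.5% and was lowest in Rps27, at 1.35%. It was under 50% in 46 genes. Windows in an exon that overlaps another gene on either strand also count as shared. Of the 87 genes, 5 overlapped another gene on the same strand and 14 on the opposite strand, among them Rpl35 and Rpl5. The read length is also unknown, so the share is not the exact part of an mRNA that could be counted. The median gene shared a window with 8 annotated pseudogenes, and Rpl7a shared one with 119. The level per kilobase was higher in genes with more unshared sequence (Spearman's rho = 0.55 across 77 genes, which share the same libraries and are not independent replicates). Both values rest on the same annotated transcript of each gene. The 22 genes with under 25% unshared had median levels of 3.75 CPM in IP and 3.11 CPM in Input, the 30 genes from 25% to 60% 15.6 CPM in IP and 14.9 CPM in Input, and the 25 genes at 60% or more 60.9 CPM in IP and 43.8 CPM in Input. The log2 fold change followed this share only weakly (rho = 0.18), and the medians in the 3 bins were 0.12, 0.26 and 0.26. Levels set side by side between these genes carry this difference in unshared sequence.

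Coding length went with the log2 fold change. Across the 77 genes rho was -0.50, and across all 13791 tested protein-coding genes with a coding length it was -0.33. The 9 genes with a coding length of up to 300 bases had a median log2 fold change of 0.69, the 46 genes over 300 and up to 600 bases 0.27, and the 22 longer genes 0.10. The 9 short ones were Rpl37, Rpl37a, Rpl38, Rpl39, Rpl41, Rps21, Rps27, Rps28 and Rps29. Without Input replicate 1 rho was -0.34 and the median of the short genes 0.39, and without both libraries of replicate 1 they were -0.31 and 0.36. Among the 77, the genes with a pyrimidine run opened by C at the start had a median log2 fold change of 0.31 (n = 13), and the others with a start window 0.18 (n = 44). The others include Rpl27a, Rpl7a and Rps24, whose runs of 16, 7 and 6 pyrimidines open with a T. They also include genes with a C-led run near but not at the start, Rpl12, Rpl13a, Rpl18 and Rps26 among them.

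**Figure D4:**
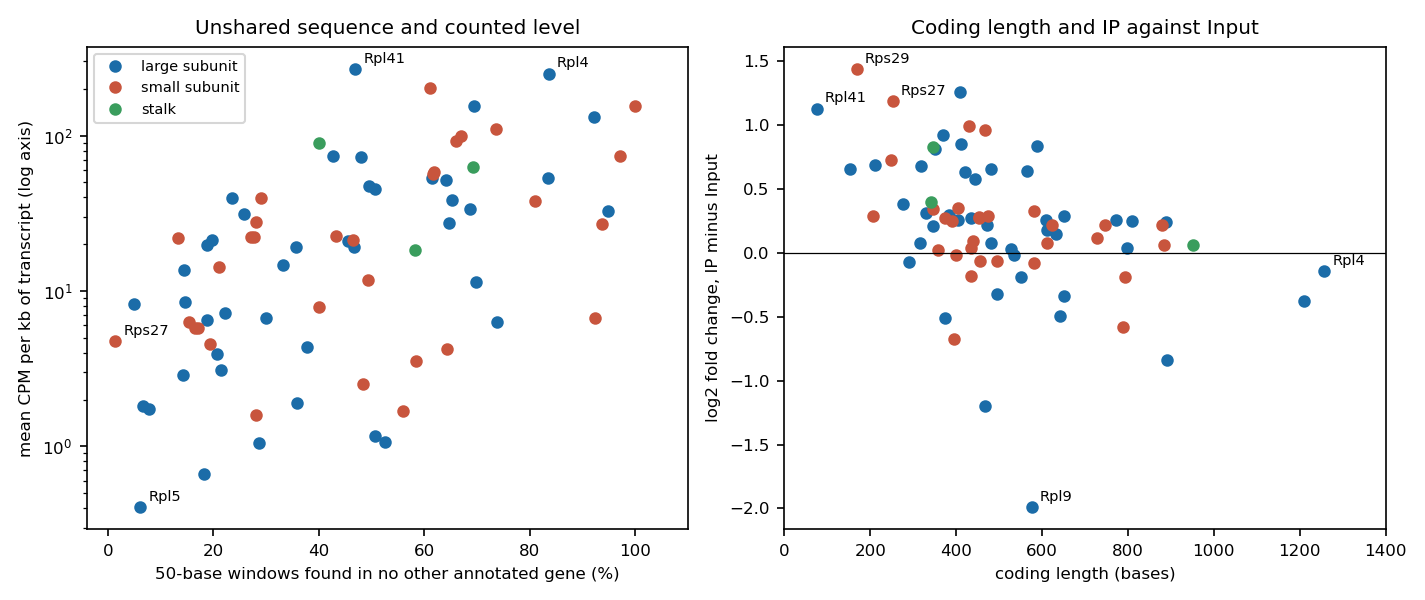
The 77 ribosomal proteins proper. Left, mean level per kilobase of transcript (log axis) against the share of 50-base windows found in no other annotated gene, with rho = 0.55. Right, log2 fold change of IP over Input against coding length, with rho = -0.50 and the shortest genes at the upper left.

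Related gene lists give the setting. Of all tested genes 9.60% were higher and 15.6% lower, and 15.9% and 19.2% under the replicate block. In either direction 43.4% of the mitochondrial ribosomal protein, 14.3% of the ribosome assembly and 5.56% of the other TOP genes passed, against 25.2% of all tested genes. Of the mitochondrial ribosomal proteins, whose ribosomes translate inside mitochondria, 33 of 76 tested were higher in IP and 0 lower, with a median log2 fold change of 0.82 (50 higher and 0 lower under the replicate block), against 0 higher and 1 lower of the 77 cytosolic ones (7 higher and 0 lower under the block). Mrps12 had 82.9, 73.1 and 63.2 CPM in IP, against 16.7, 25.4 and 18.8 CPM in Input, with no overlap and a log2 fold change of 1.85 ± 0.23 (edgeR quasi-likelihood adjusted p = 0.00121). Of 28 ribosome assembly genes 4 were higher and 0 lower (median 0.30; 6 and 1 under the replicate block), among them Nhp2 and Nop10 of the box H/ACA particles, at 1.30 ± 0.25 and 1.23 ± 0.26, and Eif6, which keeps free large subunits apart from small ones, at 0.74 ± 0.19. Npm1 was counted both among these and among 18 other TOP mRNAs, many of them for translation factors. Of those 18, 0 were higher and 1 lower (median -0.05, and 1 and 2 under the replicate block). That 1 was Pabpc1, the poly(A)-binding protein, with 61.5, 93.7 and 85.8 CPM in IP and 149, 158 and 165 CPM in Input (log2 fold change -0.97 ± 0.20, edgeR quasi-likelihood adjusted p = 0.0101). The difference between the cytosolic and mitochondrial lists was not tested.

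**Figure D5:**
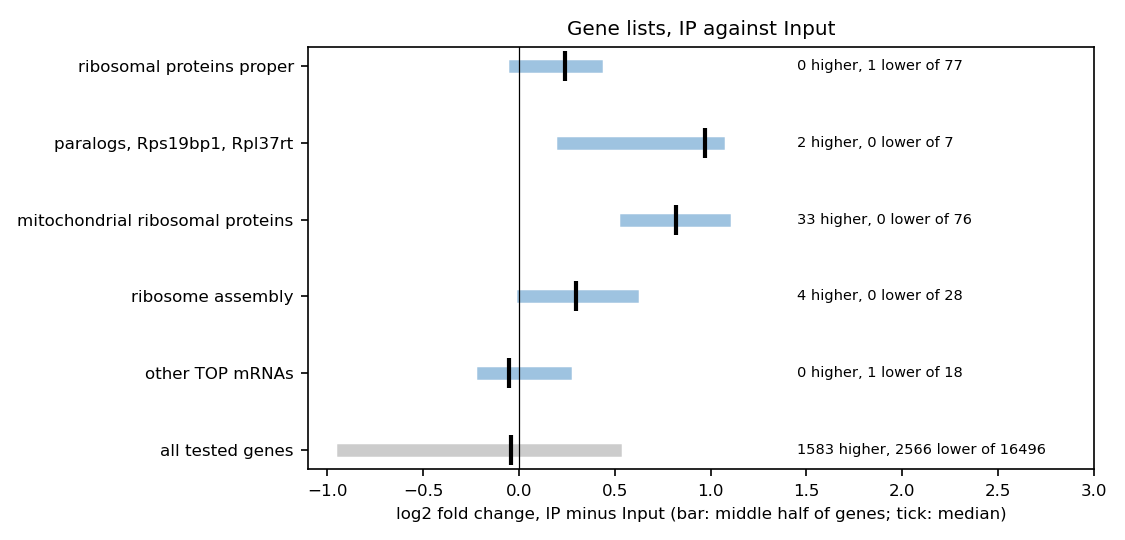
Log2 fold change of IP over Input (x axis) for 5 gene lists and all tested genes: the bar spans the first to the third quartile and the tick is the median. The mitochondrial ribosomal proteins (median 0.82) lie to the right of the cytosolic ones (0.24), and all tested genes spread most widely around -0.04. The printed counts come from the test without the replicate block.

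Ribosomal proteins whose symbols lack the prefix were described apart. Fau, which encodes the small subunit protein eS30 as a fusion with a ubiquitin-like domain, had 3.47, 8.29 and 6.79 CPM in IP, against 2.63, 3.05 and 2.57 CPM in Input. All IP libraries were above all Input libraries, and at 1.17 ± 0.45 the log2 fold change did not pass (edgeR quasi-likelihood adjusted p = 0.0908). Gnb2l1, the older symbol of the small subunit scaffold Rack1, had -0.03 ± 0.19. Of the 6 rows with pseudogene names, 5 were tested and 0 passed.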

How the data were processed

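Thalamus RNA of 3 IP and 3 Input libraries was sequenced. The authors deposited a table of read counts by gene symbol per library. The submitters' processing notes name STAR 2.0.0e, HTSeq and mm10 as the aligner, the counter and the build. Annotation, counting mode, strand setting and read length: not given in the sources used here. Library sizes and tests left out the summary rows: no feature (means of 7.763% of records in IP and 16.25% in Input), ambiguous (1.79% and 9.343%) and aligned at more than 1 place (40.803% and 25.823%). Reads at more than 1 place are not counted, which lowers and blurs the counts of genes with near-identical copies.

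Counts were filtered with filterByExpr, scaled by TMM and tested across all genes with edgeR 4.0.16 (R 4.3.3), by a two-sided quasi-likelihood test of IP against Input with Benjamini-Hochberg adjusted p under 0.05. The SE is the log2 fold change over the root of F. The script was tested on simulated data. Alternatives were other scalings, filters and tools (DESeq2 1.42.0, limma 3.58.1), a replicate block and leaving out libraries. The replicate numbers paired the libraries: the deviations of same-numbered IP and Input libraries from their group means correlated at 0.271, 0.113 and 0.141 over 16496 genes, and the highest correlations with other numbers were -0.11, -0.009 and 0.005. No 2 libraries of a group agreed within sampling noise.

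Log2 ratios within a replicate used a pseudocount of 0.05 CPM. Gene models, lengths and pseudogenes came from GENCODE M21 (GRCm38), and start windows from RefSeq (GRCm38.p6). Windows of 50 bases were searched in annotated transcripts, since no genome was used, a choice made after seeing which references were at hand. The share of unshared windows therefore misses unannotated copies. The members and lists were chosen with earlier results of these data known. The named genes are 16 chosen for their roles, the 8 paralogs, the 8 highest and 8 lowest log2 fold changes, the 8 highest levels per kilobase, members called under the replicate block, and up to 3 called genes a direction from other lists. Rpl7 and Rpl12 were named after their values were seen. Some genes are not reported here.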

Additional observations from a re-analysis of the deposited data

How the results depend on the processing

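The count of ribosomal protein genes higher in IP (2) was 4 with limma-voom and 10 with the replicate block, and the count lower (1) was 0 with RLE factors, library totals, limma-voom, no filter, the replicate block and without clone accessions. With the replicate block 2624 genes in all were higher in IP. The ratio of IP to Input in the share of reads was 1.03 without clone accessions, and the median unshared sequence was 58.6% with 100-base windows. Leaving out libraries gave 0 to 6 genes higher, 0 to 0 lower, a median log2 fold change of 0.03 to 0.39, a share ratio of 0.977 to 1.26, and 83 to 1640 higher and 651 to 2598 lower among all genes; leaving out libraries also leaves fewer samples. Signs turned for genes near 0: Rplp0 (-0.03 with upper-quartile factors), Rpsa (-0.01 with library totals, -0.04 upper-quartile), Rpl11 (0.01 with limma-voom, 0.01 with the replicate block), Rps19 (-0.00 at a mean of at least 1 CPM, -0.04 upper-quartile) and Rpl22l1 (-0.00 library totals, -0.04 upper-quartile). The cause was not tested. Leaving out libraries gave log2 fold changes of -0.24 to 0.16 for Rpl11, -0.32 to 0.38 for Rpl22l1, -0.01 to 0.49 for Rpl32, -0.14 to 0.29 for Rplp0, -0.48 to 0.13 for Rps15, -0.20 to 0.27 for Rps19, -0.05 to 0.33 for Rps3, -0.11 to 0.42 for Rps6, -0.25 to 0.11 for Rps9 and -0.29 to 0.44 for Rpsa. The median of all genes moved to -0.13 with upper-quartile factors and -0.24 with no filter, against -0.04. Besides the calls named above, the replicate block changed no other call among the 84 genes. Precision was lower for genes with little unshared sequence, with a median SE of 0.46 under 25% unshared and 0.27 at 60% or more.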
